A study of Ovis aries with 115 samples.

Results

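The cervix of Norwegian White Sheep (NWS) ewes was compared between the follicular and the luteal phase of a synchronised oestrous cycle by RNA sequencing. The libraries were chosen by their labels, breed Norwegian, cycle Induced and phase Follicular or Luteal, which gave 18 of the 115 libraries of the series, 10 follicular and 8 luteal. The labels give both groups an induced cycle, so no ewe with a natural cycle entered the comparison. The methods describe the follicular ewes, which were synchronised with an intravaginal progestagen sponge followed by equine chorionic gonadotrophin at its removal, were kept in Norway, were multiparous and were 4 to 5 years old, and whose tissue was taken from the middle of the cervix, away from the folds. The hormones, age, parity and sampling site of the luteal ewes are not given in the sources used here. The tissue of the follicular ewes was taken after death. How that of the luteal ewes was taken is not given in the sources used here, and the libraries were compared as those of separate ewes. The follicular state was judged on the ovaries, by a dominant follicle or a fresh ovulation, so that this group may hold ewes on either side of ovulation. The day of the cycle on which the luteal ewes were sampled is not given in the sources used here.

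The oestrous cycle alternates between a follicular phase, in which growing follicles secrete oestradiol, and a luteal phase, in which the corpus luteum secretes progesterone. The cervix responds to both hormones. Around oestrus its epithelium secretes abundant watery mucus, through which spermatozoa must pass, and its stroma loosens. The paper cites work in which contractions of cervical smooth muscle were stronger in the follicular phase. Under progesterone the mucus becomes scant and thick and the canal is closed. A section through the wall holds secretory and ciliated epithelium, fibroblasts in a collagen matrix, smooth muscle, blood vessels and resident immune cells.

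Total counts lay between 14461289 and 19072737 in the follicular and between 13758675 and 19143889 in the luteal libraries, and did not separate the phases (two-sided exact permutation test of the means, p = 0.995). After the filter of at least 1 CPM, a count scaled to the size of the library, in 8 or more libraries, 14565 genes were tested, of which 1289 had a gene name. All levels below are CPM on TMM-normalised library sizes, where 3 counts, the limit below which a gene was taken as not detectable in a library, correspond to 0.149 to 0.237 CPM. The TMM factors, which scale each library to the others, were 0.875 to 1.03 in follicular and 1.04 to 1.12 in luteal ewes. The tissue label was met by high levels of smooth muscle and mucin genes in every ewe, such as desmin (DES, 691 to 4956 CPM) and the membrane mucin MUC16 (238 to 1037 CPM).

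Phase accounted for 30.1% of the variance of log2 CPM across the 18 libraries, and the first principal component, with 41.5% of the variance, placed most follicular ewes on one side and most luteal ewes on the other. Follicular ewe 9 stood apart from all others on the second component (14.4% of the variance). In this ewe 97 genes were the highest of the 18 libraries and at least 4-fold above the median of the other follicular ewes, and 643 were the lowest and at least 4-fold below it, against at most 59 and 64 genes in any other library relative to its own phase. Its level of the gel-forming mucin MUC5B was 0.770 CPM where the other libraries had 12.98 to 97.0 CPM, its level of the water channel AQP5, named after its values were seen, was 3.78 CPM against 93.4 to 317 CPM, and its level of the tight junction gene CLDN10 was 304 CPM against 2.74 to 59.7 CPM. Follicular ewe 7 lay toward the luteal ewes, and luteal ewes 1 and 6 lay toward the follicular ewes. Results that moved with these ewes are given below with and without them.

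**Figure D1:**
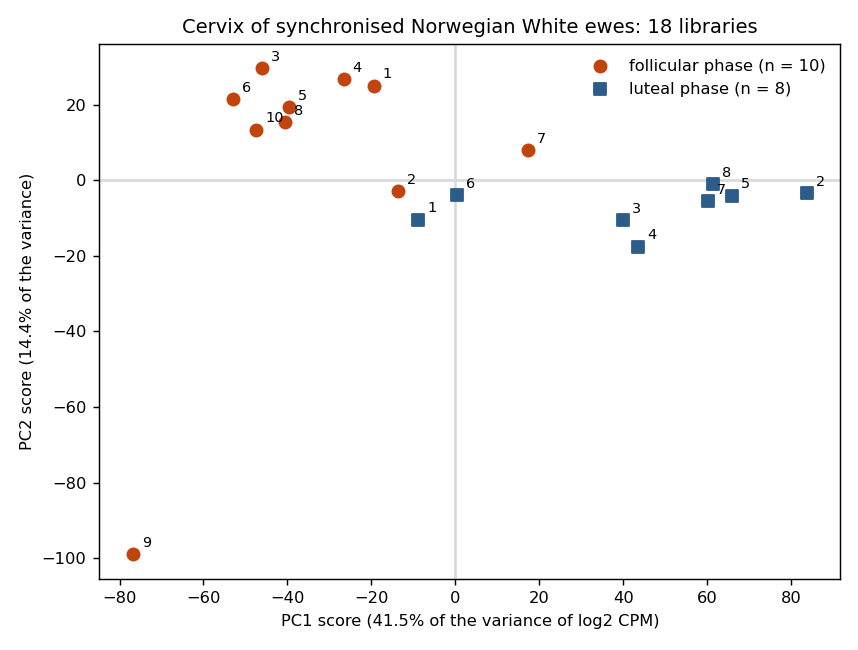
First and second principal component scores (no unit) of log2 CPM of the 14565 tested genes, with 1 point per ewe (circles, 10 follicular; squares, 8 luteal) and the replicate number beside it. The first component separates the phases apart from follicular ewe 7 and luteal ewes 1 and 6, and follicular ewe 9 lies alone at the lower left.

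Differential expression between the phases was tested with edgeR's quasi-likelihood test with Benjamini-Hochberg adjustment, and a differentially expressed gene (DEG) had an adjusted p below 0.05 and a fold change above 1.5. There were 3202 DEGs (22.0% of the tested genes), 1470 with higher expression in the follicular phase (10.1%) and 1732 with lower expression (11.9%). The median fold change was 1.89 among the higher and 1.97 among the lower DEGs, and 152 higher and 92 lower DEGs differed by more than 4-fold. The 10 follicular ewes were all above the 8 luteal ewes in 228 genes (1.57% of those tested) and all below them in 195 genes (1.34%). Among the 1289 genes with a name, 151 had higher expression (11.7%) and 183 had lower expression (14.2%), or 25.9% in either direction. All members of the gene lists below come from these named genes. The shares of the named genes are therefore the nearer background for the lists than the shares of all genes given there. The median log2 fold change, given throughout as follicular minus luteal with the standard error (SE), was -0.01 over all tested genes and -0.07 over those with a name.

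Of the named DEGs with higher expression in the follicular phase, TMEM176B had the smallest p. TMEM176B, a membrane protein of immune and other cells, had 36.4, 45.5 and 54.9 CPM (lowest, median and highest) in follicular ewes and 15.1, 19.4 and 28.2 CPM in luteal ewes, a log2 fold change of 1.19 ± 0.11 (edgeR adjusted p = 7.33e-06). CRISPLD2, a secreted protein of stromal cells, had 123, 174 and 222 CPM in follicular and 31.7, 54.9 and 91.8 CPM in luteal ewes, 3.14-fold higher in the follicular phase (log2 1.65 ± 0.18, edgeR adjusted p = 1.87e-05). In both genes every follicular ewe lay above every luteal ewe, and follicular ewe 7 and luteal ewe 1 were the ewes nearest to the other phase for CRISPLD2. The axon guidance receptor ROBO1 had 55.9 to 77.9 CPM in follicular and 26.3 to 44.7 CPM in luteal ewes (log2 0.86 ± 0.11), and the galactosyltransferase B4GALT1, which builds the sugar chains of glycoproteins, had 54.4 to 76.0 and 33.2 to 51.9 CPM (log2 0.66 ± 0.085). ZNF77, a zinc finger protein, had 19.0 to 30.4 and 8.41 to 15.8 CPM. None of these 3 genes overlapped between the phases. RAB31, a small GTPase of vesicle transport, was 2.10-fold higher, with 9 of 10 follicular ewes above the highest luteal ewe. The histone gene HIST1H2BC was 5.28-fold higher with a follicular median of 12.4 CPM and a luteal median of 1.93 CPM, and follicular ewe 7 had 1.78 CPM, within the luteal range. As histone genes form a family of close copies, the count of a single member is uncertain.

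Of the named DEGs with lower expression in the follicular phase, SLC26A11, an anion transporter, had the smallest p. It had 13.6, 17.3 and 25.4 CPM in follicular and 25.9, 37.6 and 41.8 CPM in luteal ewes, 1.98-fold lower (log2 -0.98 ± 0.13, edgeR adjusted p = 6.08e-05). The semaphorin SEMA4C had 42.7 to 62.6 CPM in follicular and 67.2 to 113 CPM in luteal ewes (log2 -0.72 ± 0.10), and RALGDS, an effector of Ras, had 20.4 to 38.5 and 42.04 to 70.1 CPM (log2 -0.78 ± 0.12). For these genes every follicular ewe lay below every luteal ewe. DOCK9, an activator of the GTPase CDC42, had a median of 146 CPM in follicular and 304 CPM in luteal ewes, the kinase CDK3 had medians of 17.6 and 35.1 CPM, and the transcription factor TFAP4 had medians of 5.97 and 14.9 CPM. In each of the 3 genes, 8 of 10 follicular ewes lay below the lowest luteal ewe. The 2 genes without a name that had the smallest p in each direction were ENSOARG00000018891 (10.2 to 13.4 CPM in luteal and 16.5 to 24.7 CPM in follicular ewes) and ENSOARG00000020454 (39.5 to 66.2 and 106 to 175 CPM), both higher, and ENSOARG00000004906 (106 to 216 and 49.1 to 97.6 CPM) and ENSOARG00000019824 (49.7 to 82.1 and 22.7 to 37.96 CPM), both lower in the follicular phase.

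Steroid-responsive genes were considered next, since oestradiol and progesterone define the phases. Of 10 tested oestrogen-responsive genes, 3 had higher expression in the follicular phase (30%, against 10.1% of all genes) and none lower (against 11.9%), with a median log2 fold change of 0.13. GREB1, an oestrogen receptor cofactor that oestradiol induces in many tissues, had 39.1, 322 and 462 CPM in follicular and 6.14, 35.2 and 149 CPM in luteal ewes, 5.46-fold higher (log2 2.45 ± 0.53, edgeR adjusted p = 0.00178). Follicular ewe 7 was the only follicular ewe within the luteal range, and luteal ewe 1 had the highest luteal level. OXTR, the receptor of oxytocin, had 0.688, 3.66 and 66.1 CPM in follicular and 0.0519, 0.213 and 4.54 CPM in luteal ewes (log2 3.65 ± 1.01, edgeR adjusted p = 0.00808), where the highest follicular level was that of ewe 9 and the highest luteal level that of ewe 1. Without follicular ewe 9 the difference in OXTR was 4.50-fold (edgeR adjusted p = 0.0214), and without luteal ewe 1 it was 43.7-fold. The potassium channel KCNK6 was 1.74-fold higher, with 9 of 10 follicular ewes above the highest luteal ewe. PADI2, an enzyme that citrullinates histones, had medians of 16.9 and 8.73 CPM and was not called (edgeR adjusted p = 0.0995), but it was called without follicular ewe 9 (log2 0.91) or without luteal ewe 5 (log2 1.12). NRIP1, a nuclear receptor corepressor, had medians of 101 and 94.5 CPM in the follicular and luteal phase (log2 0.03 ± 0.13). The adhesion receptor CELSR2, with medians of 21.98 and 37.3 CPM, was not called in the fit of all 18 libraries (edgeR adjusted p = 0.0612) and was called as lower without any one of follicular ewes 5, 7 and 9 and luteal ewes 1 and 4 (log2 -0.74 to -0.69).

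Of 14 tested genes known to respond to progesterone or glucocorticoids, 6 had higher expression in the follicular phase (42.9%, against 10.1% of all genes) and 1 had lower expression (7.14%, against 11.9%), with a median log2 fold change of 0.62. HSD11B1, the enzyme that regenerates active glucocorticoid from its inert form, had 3.90, 13.2 and 32.0 CPM in follicular and 1.64, 2.71 and 7.71 CPM in luteal ewes, 4.46-fold higher (log2 2.16 ± 0.40, edgeR adjusted p = 0.00059). The growth factor BMP2 had medians of 13.1 and 6.40 CPM (2.52-fold higher), and the secreted ligand WNT4 had medians of 4.12 and 1.97 CPM (2.43-fold higher). In each of these 3 genes, 8 of 10 follicular ewes lay above the highest luteal ewe. The member with lower expression was SOX17, a transcription factor of endothelium and glands, with 21.2 to 33.8 CPM in follicular and 20.3 to 71.9 CPM in luteal ewes (log2 -0.75 ± 0.20, edgeR adjusted p = 0.00616), and without follicular ewe 9 the list held 3 members with lower expression. FKBP5, a chaperone that both progesterone and glucocorticoids induce, overlapped widely, with 50.7 to 116 CPM in follicular and 33.9 to 141 CPM in luteal ewes (log2 -0.09 ± 0.24).

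**Figure D2:**
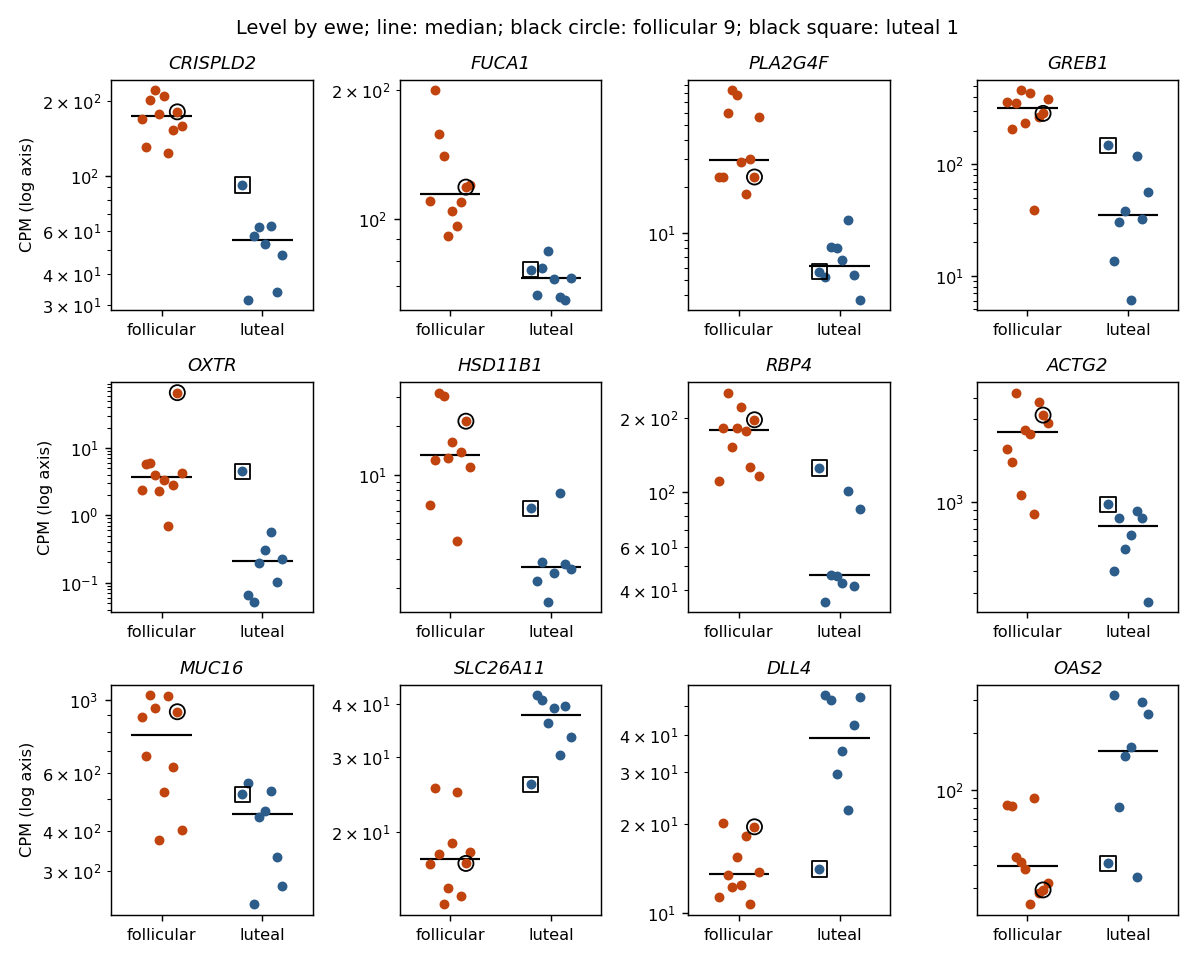
Level in CPM (log axis, a separate scale for each gene) of 12 genes in each of the 10 follicular and 8 luteal ewes, with 1 point per ewe and a line at the median of the phase. The circled point is follicular ewe 9 and the boxed point is luteal ewe 1, which lies nearest to the follicular ewes for GREB1, OXTR, CRISPLD2, RBP4, ACTG2, SLC26A11 and DLL4.

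Of 12 tested smooth muscle genes, 6 had higher expression in the follicular phase (50%, against 10.1% of all genes and 11.7% of those with a name) and 1 had lower expression, with a median log2 fold change of 0.44. Names came mostly from genes that differed between breeds in follicular libraries, these NWS libraries among them. The share of higher members is therefore not independent of how the genes came to be named. The list held 3 higher members in one fit of all synchronised libraries, and with at least 10 counts in every library 4 of 10 were higher and the median was -0.12. ACTG2, the gamma actin of visceral smooth muscle, had 859, 2541 and 4282 CPM in follicular and 266, 727 and 977 CPM in luteal ewes, 3.72-fold higher (log2 1.90 ± 0.31, edgeR adjusted p = 0.000258), and 9 of 10 follicular ewes lay above the highest luteal ewe. DES, the intermediate filament of muscle, had 1668, 3591 and 4956 CPM in follicular and 691, 1696 and 2978 CPM in luteal ewes (log2 0.95 ± 0.26, edgeR adjusted p = 0.0081). ACTC1, the actin of cardiac muscle, had 0.945, 7.81 and 55.5 CPM in follicular and 0.0652, 0.243 and 2.83 CPM in luteal ewes (log2 4.03 ± 0.86, edgeR adjusted p = 0.00154). Its estimate fell to 10.7-fold without follicular ewe 8 and rose to 25.2-fold without luteal ewe 6, and the near identity of the actin genes makes the assignment of their reads uncertain. PRKAG3, a muscle subunit of the energy-sensing kinase AMPK, was named after its values were seen, as the member with lower expression (log2 -0.93 ± 0.30). The summed level of the list was 2874 to 9427 CPM in follicular and 1065 to 4068 CPM in luteal ewes. In whole tissue a larger share of muscle cells and more RNA per muscle cell cannot be told apart. A fit with the level of ACTG2 and DES as a covariate called 540 DEGs, 362 of them among the 3202, although both genes differed between the phases themselves. Under this covariate 11 of the 22 gene lists had no called member. Among them were the lists of oestrogen-responsive and of progesterone and glucocorticoid responsive genes above. The smooth muscle list had 0 higher and 1 lower. As ACTG2 and DES are themselves members of that list, this count is no test of it.

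Of 43 tested identifiers of the fibroblast and matrix genes, 15 had higher expression in the follicular phase (34.9%, against 10.1% of all genes), 2 had lower expression (4.65%, against 11.9%) and 26 were not called, with a median log2 fold change of 0.51, and the summed level was 4378 to 7600 CPM in follicular and 2515 to 5389 CPM in luteal ewes. CRISPLD2, described above, led the list. SPON2, a secreted matrix protein, had 117, 202 and 318 CPM in follicular and 43.1, 71.9 and 174 CPM in luteal ewes (log2 1.39 ± 0.24, edgeR adjusted p = 0.000407), and LOXL2, which cross-links collagen and elastin, had 70.5, 136 and 207 CPM and 51.6, 77.5 and 103 CPM (log2 0.85 ± 0.17). PODNL1, a small leucine-rich proteoglycan, had medians of 12.6 and 6.35 CPM (1.94-fold higher). Without follicular ewe 9, 13 members had higher and 3 had lower expression, and with the covariate of ACTG2 and DES 2 had higher and 1 had lower expression.

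**Figure D3:**
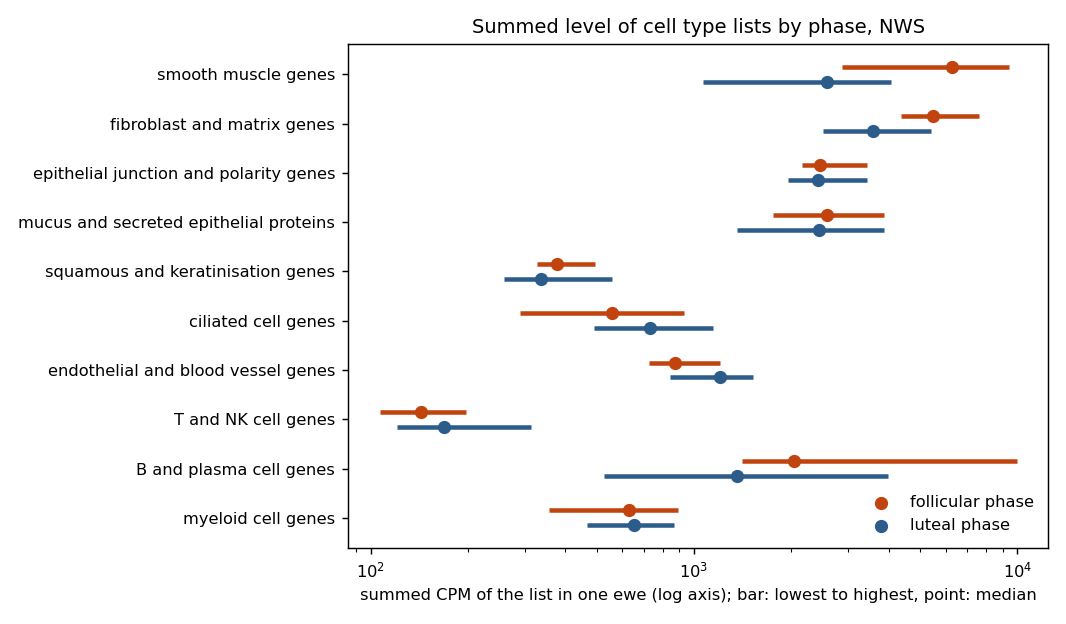
Summed CPM (log axis) of the genes of 10 cell type lists in a ewe, with the lowest to the highest ewe as a bar and the median as a point, for the 10 follicular and the 8 luteal ewes. The smooth muscle, the fibroblast and the B and plasma cell lists have higher medians in the follicular phase. The endothelial, the ciliated cell and the T and NK cell lists have lower ones, and the medians are nearer to each other in the other lists. The ranges of the 2 phases overlap in all 10 lists.

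Among mucins and other secreted epithelial proteins, 5 of 16 had higher expression in the follicular phase (31.2%, against 10.1% of all genes) and 1 had lower expression (6.25%, against 11.9%), with a median log2 fold change of 0.31. With the covariate of ACTG2 and DES 2 were higher and 1 lower. The gel-forming mucin MUC5AC had 2.70, 6.80 and 55.7 CPM in follicular and 0.676, 2.88 and 9.41 CPM in luteal ewes (log2 1.95 ± 0.62, edgeR adjusted p = 0.0178), with the highest level in follicular ewe 9 and only 4 of 10 follicular ewes above the highest luteal ewe. MUC16 had 374, 782 and 1037 CPM in follicular and 238, 449 and 559.9 CPM in luteal ewes (log2 0.83 ± 0.23, edgeR adjusted p = 0.00754). MUC5B, the other gel-forming mucin tested, had 0.770, 74.7 and 97.0 CPM in follicular and 12.98, 27.8 and 82.9 CPM in luteal ewes and was not called (log2 0.88 ± 0.51, edgeR adjusted p = 0.172), but without follicular ewe 9 it was 2.04-fold higher (edgeR adjusted p = 0.0183). The membrane mucin MUC1 had medians of 478 and 393 CPM (log2 0.40 ± 0.24), and SCGB2A1, a secretoglobin of mucosal fluids, had medians of 1.51 and 0.730 CPM (log2 1.08 ± 0.58). Neither was called. The sialyltransferase ST6GAL2 was 2.79-fold higher (medians of 3.23 and 1.10 CPM), and GALNT15, which starts mucin-type sugar chains, was 3.42-fold lower in the follicular phase (medians of 0.896 and 3.52 CPM).

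Of 34 tested ion and water transport genes, 5 had higher expression in the follicular phase (14.7%, against 10.1% of all genes) and 9 had lower expression (26.5%, against 11.9%), with a median log2 fold change of -0.20. With the covariate of ACTG2 and DES 0 were higher and 1 lower, and the median was 0.20. AQP9, a channel for water, glycerol and urea, had 0.192, 0.804 and 6.04 CPM in follicular and 0.340, 29.0 and 122 CPM in luteal ewes, 26.8-fold lower (log2 -4.74 ± 0.87, edgeR adjusted p = 0.000565). Its spread among luteal ewes was wide, and luteal ewe 6 had the lowest level of that phase. The borate and proton transporter SLC4A11 had medians of 1.62 and 4.71 CPM (2.53-fold lower). The subunits of the epithelial sodium channel ENaC, which draws salt and water out of luminal fluid, were looked at after the list's values were seen. SCNN1A and SCNN1B had lower expression (log2 -0.96 and -0.89), SCNN1D had higher expression (log2 1.53), and CFTR, the chloride channel that drives fluid secretion, had higher expression (log2 1.13). The number of members with lower expression was 4 to 11 when a single library was left out, and it was 5 or fewer without any one of follicular ewes 3, 6, 8 and 10 and luteal ewes 2, 5, 7 and 8.

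The genes of epithelial junctions and polarity had 0 higher and 2 lower members of 29 tested (6.90% called, against 22.0% of all genes), or 2 higher and 0 lower with the covariate of ACTG2 and DES, and a summed level of 2152 to 3436 CPM in follicular and 1957 to 3423 CPM in luteal ewes. The 2 were claudins of tight junctions, CLDN4, with 13.8 to 28.6 CPM in follicular and 24.2 to 74.1 CPM in luteal ewes (log2 -0.998 ± 0.22), and CLDN3, with 16.2 to 39.2 and 20.5 to 107 CPM (log2 -1.10 ± 0.26). CLDN7 had medians of 107 and 140.1 CPM (log2 -0.37 ± 0.17, edgeR adjusted p = 0.0951). CLDN10 had medians of 15.9 and 10.02 CPM and a log2 fold change of 2.00 ± 0.80 (edgeR adjusted p = 0.0502). Follicular ewe 9 had 304 CPM, and the log2 fold change without it was 0.80. Left-out libraries other than ewe 9 brought CLDN10 past the threshold, namely any one of follicular ewes 1, 3, 5, 6, 7 and 8 and luteal ewe 1 (log2 2.11 to 2.32).

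Of 8 tested squamous and keratinisation genes, 1 was called in each direction (12.5%, against 10.1% higher and 11.9% lower of all genes), and none with the covariate of ACTG2 and DES. ALOX12, a lipoxygenase of skin and platelets, had higher expression (medians of 125 and 30.6 CPM, log2 1.597 ± 0.36) and RIPK4, a kinase of keratinocyte differentiation, had lower expression (medians of 28.2 and 44.8 CPM, log2 -0.68 ± 0.16). Without luteal ewe 2 the RIPK4 difference was 1.45-fold and no longer called. The keratins KRT1 (medians of 7.73 and 1.70 CPM) and KRT16 (12.95 and 38.4 CPM) were not called, although KRT1 was called without luteal ewe 1 (log2 2.32, edgeR adjusted p = 0.00302).

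Genes of ciliated cells had 0 higher and 6 lower members of 17 tested in the follicular phase (the lower members were 35.3% of the list, against 11.9% of all genes), with a median log2 fold change of -0.73. With the covariate of ACTG2 and DES no member was called and the median was -0.04, and no member was called in the test against a 1.5-fold change. CROCC, the protein of the ciliary rootlet, had 34.3, 44.8 and 69.8 CPM in follicular and 56.0, 76.1 and 129.8 CPM in luteal ewes (log2 -0.83 ± 0.16, edgeR adjusted p = 0.000847), and 9 of 10 follicular ewes lay below the lowest luteal ewe. MYCBPAP, a gene of ciliated cells, was 2.17-fold lower, and IFT140 and WDR60, parts of the transport machinery of cilia, were 1.80-fold and 1.88-fold lower. The summed level of the list was 290 to 932 CPM in follicular and 490 to 1146 CPM in luteal ewes, and 6 members had lower expression also without follicular ewe 9.

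Lipid mediators and their metabolism changed in both directions. Of 17 prostaglandin and steroid metabolism genes, 5 had higher expression in the follicular phase (29.4%, against 10.1% of all genes) and 3 had lower expression (17.6%, against 11.9%), or 1 and 0 with the covariate of ACTG2 and DES. PLA2G4F, a cytosolic phospholipase of the family that releases arachidonic acid, had 17.9, 29.5 and 83.8 CPM in follicular and 3.74, 6.18 and 12.2 CPM in luteal ewes without overlap, 6.14-fold higher (log2 2.62 ± 0.34, edgeR adjusted p = 5.79e-05). PLA2G2C, a secreted phospholipase, was 2.997-fold lower (medians of 2.70 and 9.25 CPM), with 9 of 10 follicular ewes below the lowest luteal ewe. PTGS1, the constitutive cyclooxygenase, had 11.3, 20.5 and 54.3 CPM in follicular and 21.7, 40.1 and 64.5 CPM in luteal ewes, 1.77-fold lower (log2 -0.82 ± 0.25, edgeR adjusted p = 0.0142). The summed level of this list was 394 to 778 CPM in follicular and 342 to 452 CPM in luteal ewes.

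Of 33 lipid and fatty acid genes, 4 had higher expression in the follicular phase (12.1%, against 10.1% of all genes) and 6 had lower expression (18.2%, against 11.9%). No member was called with the covariate of ACTG2 and DES. The median of the summed level was 3205 CPM in follicular and 2643 CPM in luteal ewes. The ceramide synthase CERS4 had medians of 7.31 and 17.4 CPM (2.08-fold lower), and the lipid transporter ABCA2 had medians of 30.7 and 67.9 CPM (2.05-fold lower). SPTLC2, a subunit of the enzyme that starts sphingolipid synthesis, had medians of 63.2 and 43.8 CPM and passed the adjusted p but not the fold threshold (1.32-fold, edgeR adjusted p = 0.00173).

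The retinoid genes, which carry vitamin A and its products, had 5 higher members and none lower of 7 tested (the higher members were 71.4% of the list, against 10.1% of all genes), with a median log2 fold change of 0.97, and 1 higher member with the covariate of ACTG2 and DES. RBP4, the plasma carrier of retinol, had 111, 179 and 253 CPM in follicular and 35.8, 45.98 and 125 CPM in luteal ewes (log2 1.39 ± 0.25, edgeR adjusted p = 0.000519). STRA6, the membrane receptor of RBP4, had 25.5, 115 and 225 CPM in follicular and 5.72, 9.81 and 97.2 CPM in luteal ewes (log2 2.38 ± 0.57, edgeR adjusted p = 0.00339). Luteal ewe 1 had the highest luteal level of both genes, and STRA6 was 9.37-fold higher without it. RBP2, an intracellular retinol-binding protein, had 3, 50.5 and 156 counts in follicular and 0, 2 and 11 counts in luteal ewes, of which only 3 luteal ewes had more than 3 counts. The ratio of its pooled counts was 23.0 (95% exact counting interval 15.8 to 34.9, which leaves out the spread between ewes). The fit by ewe gave a log2 fold change of 4.49 ± 0.75 (edgeR adjusted p = 0.000284). Follicular ewe 7 was the only follicular ewe within the luteal range of RBP2. RARRES1, a retinoic acid responsive membrane protein, had medians of 477 and 282 CPM (1.85-fold higher). The list had 5 higher members also without follicular ewe 9, and 4 to 5 when any single library was left out. It had 3 higher members in the test against a 1.5-fold change, and 3 in a fit with the replicate number as a block.

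The lysosome genes had 8 higher and 4 lower members of 39 tested (20.5% and 10.3% of the list, against 10.1% and 11.9% of all genes), with a median log2 fold change of 0.22. With the covariate of ACTG2 and DES 4 were higher and 0 lower, and the test against a 1.5-fold change called 0 in either direction. FUCA1, the fucosidase that degrades glycans, had 91.3, 114 and 199 CPM in follicular and 65.0, 72.9 and 84.4 CPM in luteal ewes without overlap (log2 0.78 ± 0.13, edgeR adjusted p = 0.000316). The iduronate sulfatase IDS was 1.58-fold higher (medians of 55.6 and 34.3 CPM). The sphingomyelinase SMPD1 was 1.51-fold higher and lost the call without follicular ewe 2, follicular ewe 3 or luteal ewe 1, when its fold change was 1.45 to 1.49. Without follicular ewe 2 the list held 5 higher members, and without follicular ewe 3 or 8 or luteal ewe 3 or 8 it held 2 lower members.

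The interferon-stimulated genes, which cells switch on in answer to virus or interferon, had 0 higher and 14 lower members of 28 tested identifiers in the follicular phase (50%, against a background of 11.9%), with a median log2 fold change of -0.64. OAS2, a sensor of double-stranded RNA, had 24.5, 39.5 and 90.7 CPM in follicular and 34.1, 160.1 and 318 CPM in luteal ewes, 3.40-fold lower (log2 -1.76 ± 0.41, edgeR adjusted p = 0.00279). Its relative OAS1 had medians of 6.02 and 29.7 CPM (4.11-fold lower), and ISG15, a ubiquitin-like modifier, had medians of 3.80 and 10.4 CPM (3.21-fold lower). IRF1, a transcription factor of the pathway, had 18.7, 23.5 and 52.1 CPM in follicular and 32.6, 51.6 and 117 CPM in luteal ewes (log2 -1.12 ± 0.24, edgeR adjusted p = 0.00163), and follicular ewe 7 was the only follicular ewe within the luteal range. The spread of OAS1, OAS2 and ISG15 was wider among luteal ewes, with luteal ewe 6 lowest for all 3, within the follicular range for OAS1 and OAS2 and just below it for ISG15. UNC93B1, which escorts Toll-like receptors to endosomes, had medians of 50.7 and 70.8 CPM and a fold change of 1.39, below the threshold. IFI30, also inducible by interferon, was counted in the myeloid list and not in this list, and had higher expression (log2 1.06 ± 0.17). Leaving out any single library left 10 to 15 lower and 0 higher members, with 12 lower without follicular ewe 9, and the fit with ACTG2 and DES as a covariate left 0 in either direction and a median log2 fold change of 0.04. The summed level of the list was 1082 to 1819 CPM in follicular and 1204 to 3028 CPM in luteal ewes.

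Among T and NK cell genes, 1 of 20 had higher expression in the follicular phase (5%, against 10.1% of all genes) and 5 had lower expression (25%, against 11.9%). The median log2 fold change was -0.51, and with the covariate of ACTG2 and DES it was 0.25 and no member was called. The list had a summed level of 107 to 197 CPM in follicular and 121 to 314 CPM in luteal ewes. TNFRSF25, a death receptor of T cells, had 4.67, 7.25 and 11.7 CPM in follicular and 12.1, 18.6 and 30.1 CPM in luteal ewes without overlap (log2 -1.34 ± 0.20, edgeR adjusted p = 0.000151). The cystatin CST7 and the CD45-associated protein PTPRCAP were 2.15-fold and 1.74-fold lower. IL12RB2, a subunit of the interleukin 12 receptor, was the member with higher expression (medians of 3.59 and 0.704 CPM, log2 2.08 ± 0.50).

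Of 12 B and plasma cell genes, 2 had higher and 2 had lower expression (16.7% each, against 10.1% and 11.9% of all genes), or 2 and 0 with the covariate of ACTG2 and DES. TXNDC5, a chaperone of the endoplasmic reticulum, had 178 to 318 CPM in follicular and 103 to 188 CPM in luteal ewes (log2 0.79 ± 0.13), and PRDM1, a transcription factor of plasma cells, had medians of 103 and 51.2 CPM (log2 0.89 ± 0.22) with luteal ewe 1 at 133 CPM. ITM2C, a membrane protein of plasma cells, had medians of 256 and 189 CPM and a fold change below 1.5. Of the lower members, the lymphocyte transcription factor IKZF3 was 2.03-fold lower (log2 -1.02 ± 0.30, edgeR adjusted p = 0.0107). The summed level, which includes immunoglobulin genes, ranged from 1412 to 9947 CPM in follicular and from 527 to 3973 CPM in luteal ewes. Its medians were 2035 and 1355 CPM, and the part of plasma cell content in these differences was not tested.

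The myeloid list had 4 higher and 5 lower members of 23 tested (17.4% and 21.7%, against 10.1% and 11.9% of all genes), or 1 and 0 with the covariate of ACTG2 and DES. IFI30, a thiol reductase of antigen-presenting cells, had 37.1, 65.5 and 84.9 CPM in follicular and 18.8, 33.1 and 36.1 CPM in luteal ewes without overlap (log2 1.06 ± 0.17, edgeR adjusted p = 0.000198). PADI4, a citrullinating enzyme best known from neutrophils, had 7.82, 44.0 and 91.9 CPM and 4.12, 5.71 and 24.9 CPM (5.03-fold higher), whereas the neutrophil surface gene CD177 had 0, 2.95 and 5.07 CPM and 1.11, 1.90 and 5.95 CPM (log2 0.06 ± 0.49). Both identifiers of the neutrophil chemokine receptor CXCR2 were below the filter. STX11, a protein of granule release, was 1.74-fold lower, and AQP9, which is also a gene of this list, is given above. The number of lower members was 3 without any one of follicular ewes 1, 3, 5, 6, 8 and 10 and luteal ewes 2, 3, 4, 5, 7 and 8.

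Endothelial and blood vessel genes had 0 higher and 3 lower members of 11 tested (the lower members were 27.3% of the list, against 11.9% of all genes), with a median log2 fold change of -0.38. The list held 3 lower members whichever single library was left out, and none was called with the covariate of ACTG2 and DES. DLL4, the Notch ligand of sprouting vessels, had 10.7, 13.6 and 20.2 CPM in follicular and 14.1, 39.1 and 54.5 CPM in luteal ewes, 2.58-fold lower (log2 -1.37 ± 0.22, edgeR adjusted p = 0.000251). Luteal ewe 1 had the lowest luteal level, and all other luteal ewes lay above the highest follicular ewe. PLAT, the tissue plasminogen activator, had medians of 119 and 235 CPM (1.73-fold lower). VWF, the clotting protein made by endothelium, had medians of 481 and 646 CPM and a fold change of 1.31, below the threshold. The summed level of the list was 728 to 1202 CPM in follicular and 846 to 1524 CPM in luteal ewes, which includes the 3 called genes, and the part of vessel content in these differences was not tested.

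Of 15 tested identifiers of the acute phase, complement and coagulation genes, 5 had higher expression in the follicular phase (33.3%, against 10.1% of all genes) and 4 had lower expression (26.7%, against 11.9%), or 1 and 0 with the covariate of ACTG2 and DES. The complement factor C3 is held by 2 identifiers, with medians of 133 and 68.2 CPM for the one (log2 0.94 ± 0.26, edgeR adjusted p = 0.00818) and of 191 and 99.3 CPM for the other (log2 0.89 ± 0.32, edgeR adjusted p = 0.0337). The call of the latter was lost without any one of follicular ewes 2, 7 and 9 and luteal ewes 2, 3, 7 and 8 (fold change 1.69 to 1.77). SAA1, serum amyloid A, had medians of 7.74 and 5.31 CPM (log2 0.50 ± 0.46), and APOA1, the main protein of high-density lipoprotein, was 1.93-fold lower (medians of 4.75 and 7.50 CPM). The number of higher members was 3 without follicular ewe 2 or 7 or luteal ewe 2, 3 or 7.

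Wnt, Notch and hedgehog signalling genes had 7 higher and 1 lower members of 29 tested (24.1% and 3.45%, against 10.1% and 11.9% of all genes), with a median log2 fold change of 0.48. No member was called with the covariate of ACTG2 and DES, and the summed level had medians of 1131 CPM in follicular and 1149 CPM in luteal ewes. WNT10B, a secreted ligand, had 23.0, 37.2 and 48.0 CPM in follicular and 18.4, 23.2 and 24.9 CPM in luteal ewes (log2 0.68 ± 0.11, edgeR adjusted p = 0.000319), and WISP1, a matricellular target of Wnt, had medians of 3.67 and 1.32 CPM (2.68-fold higher). FZD2, a Wnt receptor, was 1.59-fold higher, and lost the call without follicular ewe 9 (log2 0.584, just under the threshold). AXIN2, a feedback inhibitor that Wnt induces, had medians of 21.6 and 12.4 CPM and was not called (log2 0.63 ± 0.27, edgeR adjusted p = 0.0694), but was called without follicular ewe 2 or 7 or luteal ewe 1 (log2 0.70 to 0.86). The lower member was DLL4. Without luteal ewe 1 the list held 11 higher members, and without follicular ewe 9 it held 3 lower ones.

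The 13 tested cell cycle genes had a median log2 fold change of -0.01, and their summed level had a median of 193 CPM in follicular and 264 CPM in luteal ewes. The share of called members, 23.1%, was near that of all genes (22.0%), and none was called with the covariate of ACTG2 and DES. The 3 called members had higher expression, and without the fold threshold 3 were higher and 3 lower. The 3 were IQGAP3, a scaffold of dividing cells (medians of 8.51 and 1.55 CPM, log2 1.85 ± 0.43), the kinetochore gene SPC24 (3.32 and 0.666 CPM, log2 1.93 ± 0.47) and the histone variant H2AFX (12.3 and 8.24 CPM, log2 0.63 ± 0.16). Follicular ewe 7 had the lowest follicular level in all 3. H2AFX lost its call without follicular ewe 9 (log2 0.581), whereas the condensin subunit NCAPD2, with medians of 65.2 and 104 CPM, was called as lower without follicular ewe 7 (log2 -0.586). Of 3 circadian genes tested, the repressor NR1D1 had 8.47, 14.5 and 37.2 CPM in follicular and 24.8, 42.5 and 63.5 CPM in luteal ewes (log2 -1.26 ± 0.26, edgeR adjusted p = 0.00134), while its relative NR1D2 (log2 -0.20 ± 0.19) and the deubiquitinase USP2 (log2 0.01 ± 0.14) were not called. The clock hour of tissue collection is not given in the sources used here, and its part in the NR1D1 difference was not tested.

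**Figure D4:**
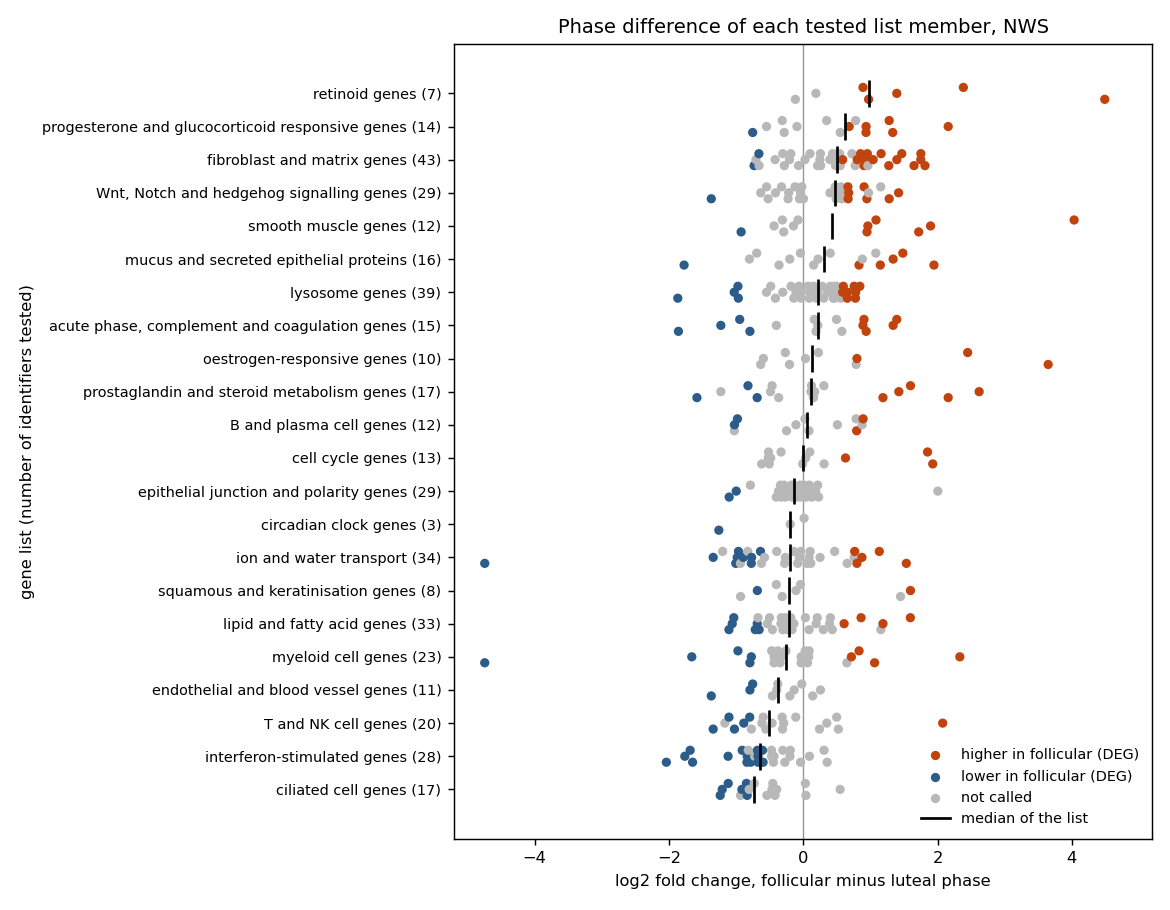
The log2 fold change (follicular minus luteal) of each tested member of 22 gene lists, with 1 point per identifier, orange where it had higher and blue where it had lower expression in the follicular phase as a DEG, grey where it was not called, and a black line at the median of the list. The lists are ordered by their medians, from -0.73 in ciliated cell genes to 0.97 in retinoid genes.

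The largest increases among the named genes described here were those of FSTL5, RBP2, TAC3 and ACTC1, whose luteal medians were 0.0543 to 1.33 CPM. FSTL5, a secreted follistatin-like protein, had 18, 98.5 and 205 counts in follicular and 0, 1 and 3 counts in luteal ewes, so that no luteal ewe passed the detection limit of 3 counts. The ratio of its pooled counts was 94.3 (95% exact counting interval 49.5 to 207, which leaves out the spread between ewes). The fit by ewe gave FSTL5 a log2 fold change of 6.37 ± 0.67 (edgeR adjusted p = 1.27e-05). The neuropeptide gene TAC3, which encodes neurokinin B, was held by 2 identifiers that may be copies of one another, with 26.0, 99.7 and 169.9 CPM in follicular and 0.130, 0.935 and 19.1 CPM in luteal ewes for the one (log2 4.38 ± 0.82, edgeR adjusted p = 0.000655) and 39.2, 168 and 313 CPM and 0.572, 1.33 and 34.7 CPM for the other (log2 4.35 ± 0.87, edgeR adjusted p = 0.000979). All follicular ewes lay above all luteal ewes for both. The highest luteal levels were those of ewe 1, without which the folds were 35.7 and 35.8. C1QTNF6, a secreted relative of complement C1q, had 3.15 to 10.1 CPM in follicular and 0.430 to 2.91 CPM in luteal ewes (5.07-fold higher), also without overlap.

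Among genes with the largest decrease after AQP9, PRODH, which starts the breakdown of proline, had 6.73, 9.97 and 20.6 CPM in follicular and 8.22, 53.2 and 116 CPM in luteal ewes (log2 -2.22 ± 0.40, edgeR adjusted p = 0.000519). The ATP-gated channel P2RX2 had 0.128, 7.84 and 21.5 CPM in follicular and 0.907, 34.5 and 74.4 CPM in luteal ewes (log2 -2.05 ± 0.66, edgeR adjusted p = 0.0188). The adaptor subunit AP3B2, the germ cell gene TEX14 and the actin regulator WIPF3 were 4.32-fold, 3.74-fold and 3.29-fold lower. The melanosome protein PMEL was 3.29-fold lower (medians of 6.63 and 22.6 CPM) with a single high follicular ewe, ewe 2 at 33.8 CPM. Luteal ewe 6 had the lowest luteal level of AQP9, PRODH, P2RX2 and AP3B2, each within the follicular range. MCOLN3, an endolysosomal cation channel, had medians of 2.27 and 10.6 CPM (log2 -1.87 ± 0.66, edgeR adjusted p = 0.0304), and this call was lost without follicular ewe 3 or 8 or luteal ewe 3 or 8 (log2 -1.80 to -1.60).

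The same contrast was then made in the synchronised ewes of the other breeds, the Norwegian Fur (8 follicular, 9 luteal) and the Irish Belclare (10 and 10) and Suffolk (11 and 10), which share no ewe with the NWS comparison. On the same 14565 genes the Fur had 1677 higher (11.5%) and 1755 lower (12.0%) DEGs, the Belclare 1748 (12.0%) and 1479 (10.2%) and the Suffolk 1221 (8.38%) and 1257 (8.63%). Of the 1470 genes with higher expression in follicular NWS ewes, 1120 (76.2%) were higher also in Fur, 944 (64.2%) in Belclare and 748 (50.9%) in Suffolk ewes. These were 66.8%, 54.0% and 61.3% of the higher DEGs of the respective breed. Of the 1732 genes with lower expression, 1221 (70.5%), 980 (56.6%) and 700 (40.4%) were lower also in Fur, Belclare and Suffolk ewes. Opposite calls were given to 0, 9 and 6 genes. In all 4 breeds 606 genes were called as higher and 377 as lower, while 193 higher and 226 lower DEGs were called in NWS and in none of the other breeds.

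Whether the NWS phase difference itself differed from that of other breeds was tested by interaction. In the libraries of NWS and Fur, edgeR's quasi-likelihood test called 0 of 14565 genes (0.00%, 470 at an unadjusted p under 0.05), and in the libraries of all 4 breeds, with NWS set against the mean of the other 3, it also called 0 genes (0.00%, 1175 at an unadjusted p under 0.05). The DESeq2 Wald test called 0 genes in each. The 419 NWS DEGs that were called in no other breed were therefore not shown to be particular to NWS.

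For named genes the values were as follows. GREB1 had log2 fold changes of 2.45 in NWS, 3.01 in Fur, 4.88 in Belclare and 3.20 in Suffolk, and NWS differed from the mean of the other 3 by -1.24 ± 0.45 (edgeR adjusted p = 0.434). CRISPLD2 had nearly equal values, 1.65, 1.42, 1.48 and 1.42. The muscle genes had higher values in NWS than in Suffolk, with 1.90, 1.34, 1.597 and -0.17 for ACTG2, 0.95, 0.39, 0.88 and -1.23 for DES and 4.03, 2.32, 1.90 and 0.24 for ACTC1. The authors rank ACTG2 and DES among the genes furthest below NWS in Suffolk, in these same follicular libraries. They rank ACTC1 likewise for Suffolk against Fur. The contrast with Suffolk is therefore not independent of how these genes came to be named. DES was called as higher in NWS and as lower in Suffolk (edgeR adjusted p = 0.0313), and was not called in Fur (edgeR adjusted p = 0.503) or Belclare ewes (edgeR adjusted p = 0.486). NWS was not tested against Suffolk alone. The largest of these differences from the mean of the other 3 breeds, that of ACTC1, was 2.55 ± 0.79 and was not called (edgeR adjusted p = 0.318). DLL4 had -1.37, -0.79, -0.78 and -0.27 (difference -0.74 ± 0.25, edgeR adjusted p = 0.352), and IRF1 had -1.12, -0.40, -0.33 and -0.54 (difference -0.69 ± 0.23, edgeR adjusted p = 0.352).

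**Figure D5:**
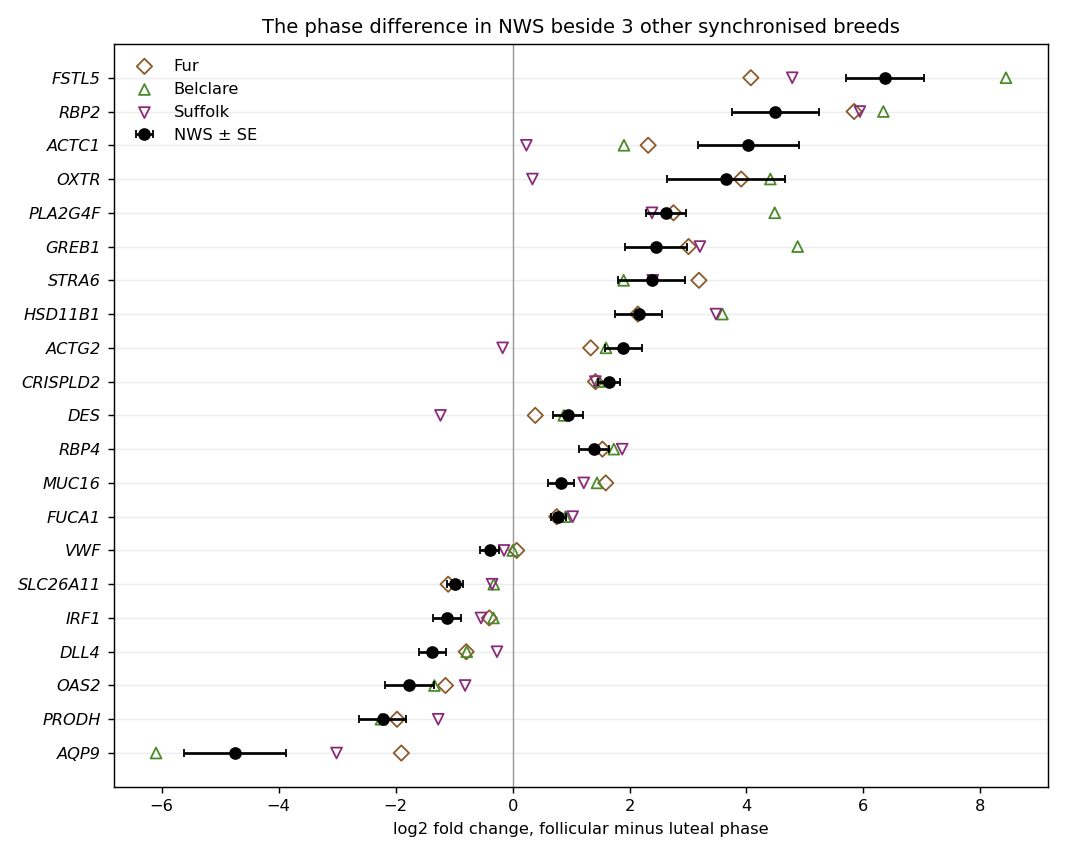
The log2 fold change (follicular minus luteal) of 21 named genes in NWS (black points with the SE as bars) and in synchronised Fur, Belclare and Suffolk ewes (open symbols, shown without error). The breeds lie on the same side of 0 for most genes, with Suffolk below 0 for ACTG2 and DES where NWS lies above.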

How the data were processed

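Poly(A) RNA of the cervix was sequenced from 10 follicular and 8 luteal synchronised NWS ewes. The authors trimmed paired reads with BBDuk, aligned them to Oar_v3.1 with STAR (2.6.1b per the labels), kept uniquely mapped pairs and deposited raw counts per Ensembl gene from featureCounts (Subread 1.6.3 per the labels), for 27054 identifiers a ewe. Use of strand in counting is not given in the sources used here, so overlapping antisense genes may share reads. The methods describe the follicular libraries, and the labels give the luteal libraries the same kit and tools.

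Genes with at least 1 CPM in 8 or more of the 18 libraries were tested in R 4.3.3 with edgeR 4.0.16 (TMM, glmQLFit, glmQLFTest, Benjamini-Hochberg). SEs were derived as the absolute log2 fold change over the root of F. DESeq2 1.42.0 was an alternative. Scripts were tested on simulated data. No pair of libraries within a phase agreed within sampling noise (73 pairs, lowest chi-square per degree of freedom 24.1), so all 18 were kept. Nothing in the labels names batches, and the p-values measure the spread between these ewes. Counting intervals cover counting error only.

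Names were known for 1352 identifiers, mostly genes that differed between breeds in follicular libraries of this series, so the named genes are not a random sample and are not independent evidence. The libraries compared, the 22 gene lists and the genes named were chosen with earlier results of these data known. Named were the 10 named DEGs of smallest p and the 10 of largest fold change (mean of at least 5 CPM in the higher phase) in each direction, up to 4 members of smallest p of each list, a fixed set of cervical and steroid-responsive genes, and 2 unnamed identifiers in each direction; members named outside this rule are said to be so. Some genes that the rule names are not reported here. The 26 list identifiers under the filter were not tested. The natural-cycle libraries were not used here, and 1 library whose labels name different phases was left out. Alternatives were other size factors, tests, filters, thresholds, a muscle covariate, a replicate block, one fit of all 76 synchronised libraries and leaving out each library.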

Additional observations from a re-analysis of the deposited data

Results flagged for a closer look

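Outlying ewes were sought in 236 groups of 10 follicular or 8 luteal values, made up of 117 named genes and the total count in each phase. The highest or lowest ewe was set apart from its own phase by Dixon's criterion in 17, where chance flags about 1 in 20 groups. For genes the criterion was applied to log2 CPM, while the levels below are given in CPM.

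Follicular ewe 9 was set apart in 6 genes. It had the highest OXTR level of its phase, 66.1 CPM, where the next ewe had 5.94 CPM. It had the lowest levels of MUC5B (0.770 CPM, next 36.2 CPM), MUC1 (177 CPM, next 423 CPM), P2RX2 (0.128 CPM, next 2.14 CPM) and ENSOARG00000018891 (16.5 CPM, next 20.2 CPM). For CD177 it had 0 counts, which allows up to 0.192 CPM, where the next ewe had 1.26 CPM.

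Follicular ewe 7 was set apart in 4 genes, each time toward the luteal ewes. It was the lowest for GREB1 (39.1 CPM, next 207 CPM), HIST1H2BC (1.78 CPM, next 9.74 CPM) and RBP2 (0.172 CPM, next 1.95 CPM) and the highest for IRF1 (52.1 CPM, next 31.5 CPM). Luteal ewe 1 was the highest of its phase for OXTR (4.54 CPM, next 0.567 CPM) and PRDM1 (133 CPM, next 60.9 CPM), also toward the other phase.

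The other ewes were set apart in 1 or 2 genes each. Follicular ewe 2 was the highest for PLA2G2C (6.80 CPM, next 3.36 CPM) and PMEL (33.8 CPM, next 8.79 CPM), and follicular ewe 4 was the lowest for LOXL2 (70.5 CPM, next 119 CPM). Luteal ewe 6 was the highest for KCNK6 (7.77 CPM, next 6.64 CPM), and luteal ewe 7 was the lowest for WNT10B (18.4 CPM, next 21.9 CPM).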

How the results depend on the processing

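The count of 3202 DEGs was 2712 to 3757 with DESeq2 size factors, the DESeq2 Wald or likelihood ratio test, no low count filter, at least 10 counts in every library, or one fit of all synchronised libraries, and 2736 to 3732 when any one library was left out (2676 to 3160 shared with the 3202). Of the 96 called named genes, 93 to 96 were called also without a given library, and 96 also by either DESeq2 test. Dropping the fold threshold gave 6139 genes, and testing against a 1.5-fold change with glmTreat gave 622 (341 higher, 281 lower), where 48 of the 96 called named genes were no longer called and the interferon-stimulated genes held 2 lower members in place of 14. The covariate of ACTG2 and DES left 540, where only 23 of the 96 called named genes were still called. Both genes differed between the phases, so the covariate also removes phase differences that move with them. Under it the log2 fold change changed sign for DES (-0.27), CELSR2 (0.026), CLDN7 (0.27), KRT16 (1.04), NR1D2 (0.25), NRIP1 (-0.019), FKBP5 (0.68) and AXIN2 (-0.075), of which only DES was called before. The cause was not tested. The replicate block gave 2637 DEGs (1361 higher, 1276 lower, 2456 shared) and turned NRIP1 (-0.036) and FKBP5 (0.021), neither of them called. Under it 13 of the 96 called named genes were no longer called, among them DES, MUC5AC, ISG15, P2RX2 and IKZF3. The lower members were then 7 of the interferon-stimulated, 2 of the T and NK cell and 4 of the ion and water transport genes. The higher members were 3 of the smooth muscle and 3 of the retinoid genes. The labels do not say that equal numbers mark shared ewes or days. Deviations of the 8 same-numbered pairs correlated at -0.20 to 0.22 (median -0.07), with 1 of 8 luteal ewes correlating best with the follicular ewe of its own number. Over the left-out libraries, 4 uncalled genes crossed 0, namely USP2 (-0.041 to 0.13), NRIP1 (-0.026 to 0.11), CD177 (-0.084 to 0.38) and FKBP5 (-0.20 to 0.068). No called gene changed sign when a library was left out. Both interaction counts were 0 under each alternative run, and without follicular ewe 9, an alternative chosen after seeing the data. Depth limits the genes under about 0.2 CPM, such as FSTL5 and RBP2 in luteal ewes.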
